A study of Homo sapiens with 4 samples.

Results

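The genes described here are 38 genes of DNA replication, from the loading of the helicase at origins to the copying of chromatin behind the fork, found by their symbols in tables of 57963 genes for PC3 cells sorted by the SORE6 reporter. PC3 is a human prostate cancer line that grew out of a bone metastasis. The line studied carried a lentiviral SORE6 reporter, in which a destabilized GFP is driven by elements that SOX2 and OCT4 bind, had been selected with puromycin and was at passages 18 to 22. Cells in the GFP-positive gate were collected as SORE6+ cells, which the labels call cancer stem cells, and cells in the GFP-negative gate as SORE6- cells, the labels' non cancer stem cells. Each gate has 2 RNA libraries, numbered replicate 1 and replicate 2. The study's methods speak of 2 sorted pairs, no source says that a number marks a pair or names what differed between the numbers, and none describes the 2 libraries of a gate as separate cultures, so the p-values measure only the spread between these libraries. The values are TPM, relative transcript abundances that correct for length, sum to the same total in every library and keep no read depth. All 38 genes reached the minimum for testing of 1 TPM in 2 libraries, as did 17642 genes in all, with levels of 8.17 TPM (POLA1) to 218 TPM (PCNA).

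Before S phase, the origin recognition complex, CDC6 and CDT1 load the MCM helicase onto chromatin, and CDC45 and the GINS complex later turn it into an active helicase. DNA polymerases then copy both strands on the sliding clamp PCNA, which RFC loads, while FEN1 and LIG1 join the lagging-strand fragments and chromatin assembly factors rebuild nucleosomes. Most of these genes are known targets of E2F factors, which bind near the transcription start and raise transcription late in G1, whereas many mitotic genes are controlled through CCAAT boxes and CHR elements and peak later in the cycle.

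The promoters of the replication genes are shown for the words linked to this control, beside those of mitotic genes. RefSeq promoters on GRCh38.p14, covering 250 bases before and 50 after the first-listed start, were matched for 35 of the 38 genes, all but MCM4, MCM5 and GINS4. They were searched on both strands for short words that E2F factors are known to prefer, of which the first was TTCCCGC. The next was TTGGCGC, and the last was TTCGCGC. Matches on opposite strands can overlap in 1 site and were counted separately. An E2F word was in 29 of the 35 promoters (82.9%). Of all 27305 promoters of this length, 11.2% held one, as did 17.9% of those of genes tested and 24.1% of 29 promoters of mitotic genes. Of 39 promoters of other replication genes, only 30.8% held one, so the high share belongs to the 38 chosen genes and not to replication genes in general. There were 51 matches, 35 of them within 50 bases of the start. The CHR element TTTGAA was in 1 of the 35 (2.86%, RRM1), against 72.4% of the mitotic promoters and 15.4% of all promoters. It was in 9.58% of the promoters of genes tested and 7.69% of those of other replication genes. The CCAAT box was in 65.7% of the 35 promoters, 75.9% of the mitotic ones and 35.7% of all, and it overlapped an E2F word in 5 of the 35. Shown here are 160 bases before and 10 after the start for the 5 genes that passed the test between replicates and for RRM2, which narrowly missed its fold limit, written 5′ to 3′ on the gene's own strand with the E2F words, on either strand, in capitals. They lie at chr1:212035588-212035757 (plus strand), chr1:52404414-52404583 (minus strand), chr2:135876434-135876603 (minus strand), chr12:109097437-109097606 (plus strand), chr18:657493-657662 (plus strand) and chr2:10122579-10122748 (plus strand).
DTL: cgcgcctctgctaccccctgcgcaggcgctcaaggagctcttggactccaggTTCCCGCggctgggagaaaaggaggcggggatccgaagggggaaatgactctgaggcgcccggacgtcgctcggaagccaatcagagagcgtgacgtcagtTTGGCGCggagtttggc
ORC1: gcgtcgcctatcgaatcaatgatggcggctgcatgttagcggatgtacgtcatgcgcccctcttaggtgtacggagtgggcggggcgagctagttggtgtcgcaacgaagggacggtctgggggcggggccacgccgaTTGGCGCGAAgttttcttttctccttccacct
MCM6: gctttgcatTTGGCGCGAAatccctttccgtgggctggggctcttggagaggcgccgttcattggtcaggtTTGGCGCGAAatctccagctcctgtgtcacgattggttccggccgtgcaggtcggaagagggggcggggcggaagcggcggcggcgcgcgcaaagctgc
UNG: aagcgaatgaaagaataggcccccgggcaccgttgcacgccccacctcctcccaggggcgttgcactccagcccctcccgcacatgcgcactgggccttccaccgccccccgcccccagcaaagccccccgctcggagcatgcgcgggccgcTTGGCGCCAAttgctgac
TYMS: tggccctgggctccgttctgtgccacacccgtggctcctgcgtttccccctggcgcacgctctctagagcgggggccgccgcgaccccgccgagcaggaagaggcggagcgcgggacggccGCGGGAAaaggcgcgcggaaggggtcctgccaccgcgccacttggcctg
RRM2: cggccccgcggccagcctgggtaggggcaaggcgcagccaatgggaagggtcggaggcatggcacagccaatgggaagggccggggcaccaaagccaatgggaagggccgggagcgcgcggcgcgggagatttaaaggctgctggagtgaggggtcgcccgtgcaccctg
The stretch of MCM6 holds overlapping E2F words at 2 places, ORC1 and UNG hold an overlapping pair near the start, and RRM2 holds none but has 3 CCAAT boxes, at -123, -93 and -66. Such matches describe the letters and do not show that a factor was bound.

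**Figure D1:**
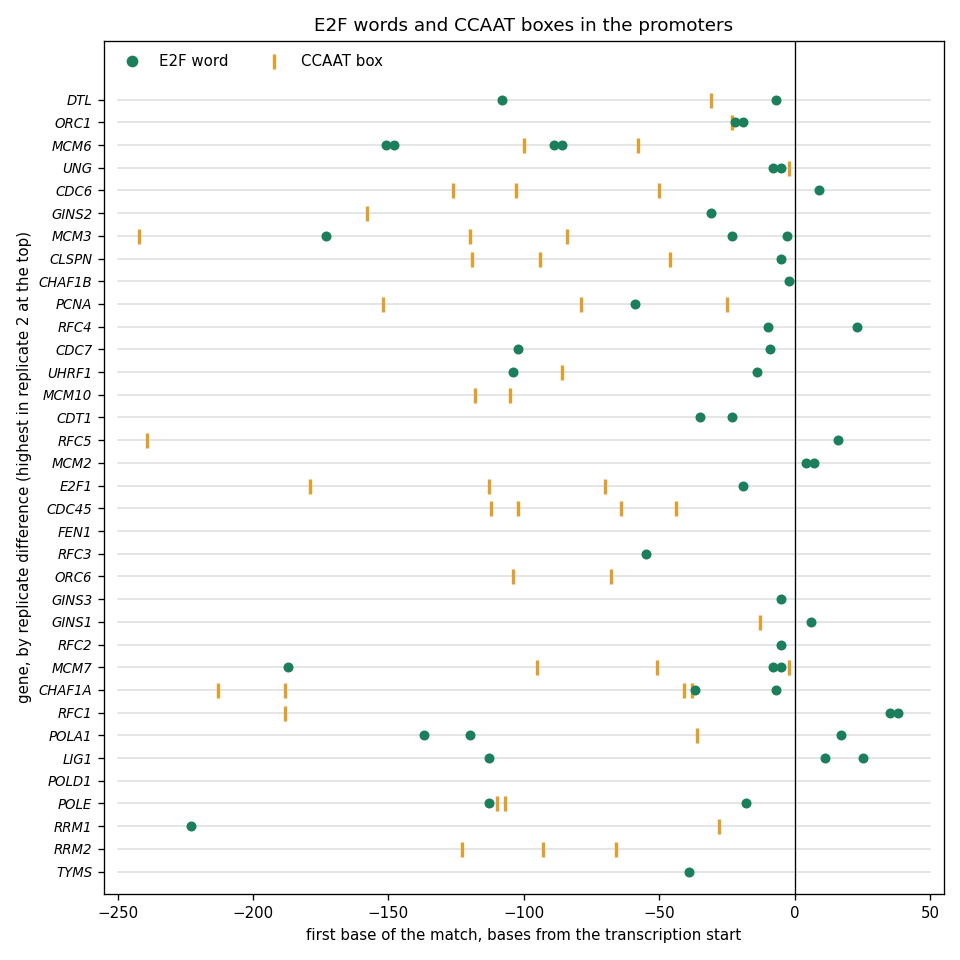
Matches to the E2F words (circles) and CCAAT boxes (bars) in the 35 promoters, by distance in bases from the transcription start, with genes ordered by their log2 difference of replicate 2 minus replicate 1. Most E2F words crowd around the start, and 29 of the 35 promoters hold one.

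No replication gene passed the test between the sorting gates, whereas 5 passed between the replicate numbers, 4 as higher and 1 as lower in replicate 2. The test was limma's, with a threshold of 0.1 for the adjusted p and a change of 1.5-fold or more. The fit between SORE6+ and SORE6- cells had no term for the replicate number. In it 0 of the 38 genes passed, as did 0 of all 17642 genes (0%). A fit with that term also gave 0 and 0. There 6 of the 38 and 2982 of all genes had an unadjusted limma p under 0.05, against 0 and 673 without it. Over protein-coding genes alone the term gave 164 genes that passed, with 0 of the 38 among them. The study, by DESeq2 at the same thresholds, reported genes both higher and lower in SORE6+ cells. Each replicate number has 1 SORE6+ and 1 SORE6- library, which make its n of 2, so its SD includes any gate difference. No library is repeated within a gate and number. The error of the replicate fit therefore came from how far the gates disagreed, moderated by the variance trend over genes. Between the replicate 2 and the replicate 1 libraries, in a fit that kept the gate as a term, DTL, ORC1, MCM6 and UNG passed as higher and TYMS passed as lower. Over all genes tested, 298 (1.69%) passed as higher and 1212 (6.87%) as lower, a split that became 445 and 910 with relative log expression factors and 562 and 850 with upper-quartile factors. At an adjusted p under 0.1 with no fold limit, 11 of the 38 were higher (5.79% of all genes) and 6 were lower (16.5% of all genes), and this split became 14 and 3 with relative log expression factors and 16 and 3 with upper-quartile factors. Both libraries of replicate 2 lay above both of replicate 1 for 18 of the 38 genes (18.7% of all genes) and below both for 11 (36.8% of all genes). The median log2 difference on the log2(TPM + 1) scale was 0.11 for the 38 genes and -0.09 for all genes tested, and with the same factors the median of the 38 was 0.21 and 0.25 and that of all genes 0.00 and 0.04.

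**Figure D2:**
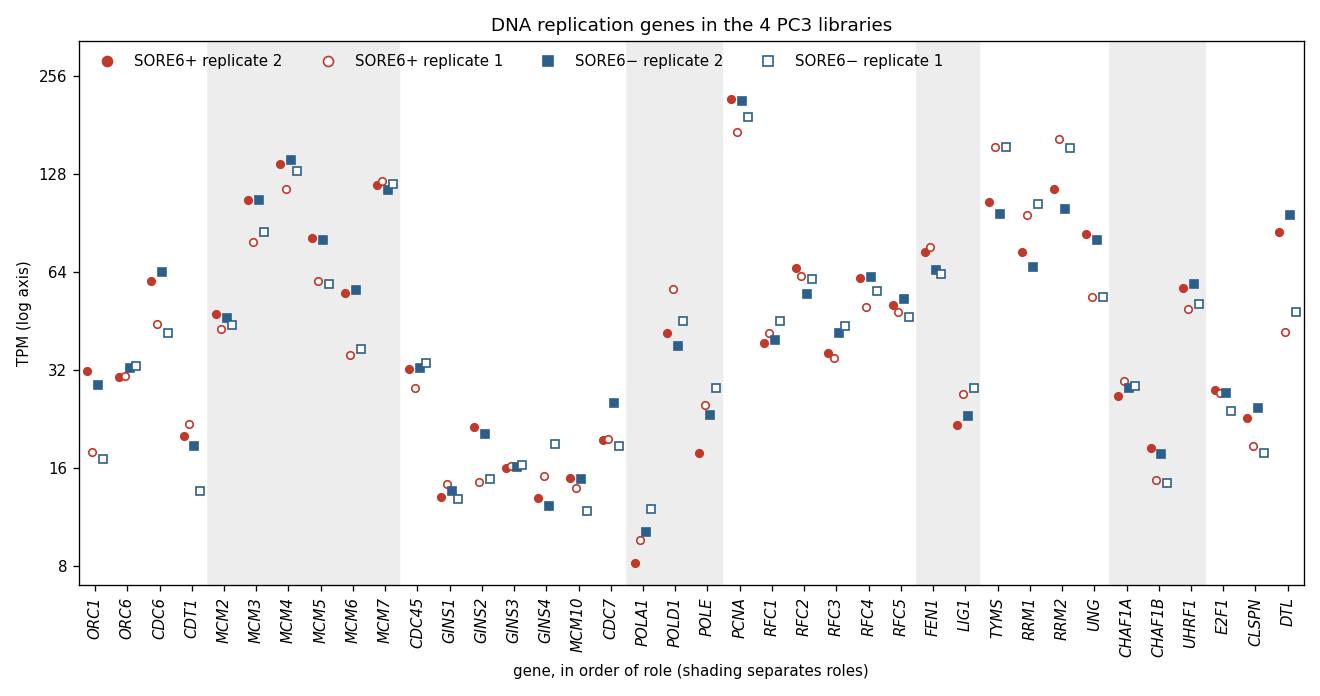
TPM of the 38 replication genes in each library on a log axis, ordered by role, with SORE6+ libraries as circles and SORE6- libraries as squares, filled for replicate 2 and open for replicate 1. For DTL, ORC1, MCM6 and UNG both filled symbols stand above both open ones and for TYMS below them, while the SORE6+ and SORE6- symbols of the same replicate mostly lie close together.

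Among the licensing genes, the 2 that passed at an adjusted p under 0.1 were higher in replicate 2. ORC1 (ENSG00000085840.12, chr1:52372829-52404459 in GENCODE v29, GRCh38), the largest subunit of the origin recognition complex, had 31.8 TPM in SORE6+ and 28.9 TPM in SORE6- cells of replicate 2, against 17.9 TPM in SORE6+ and 17.1 TPM in SORE6- cells of replicate 1. The replicates did not overlap, and the log2 difference was 0.76 ± 0.07 (SE, n = 2 each, limma adjusted p = 0.037). CDC6, the ATPase that helps to load the helicase, had 60.4 and 64.4 TPM in the SORE6+ and SORE6- libraries of replicate 2, against 44.5 and 41.6 TPM in those of replicate 1, a log2 difference of 0.53 ± 0.07 (SE, limma adjusted p = 0.052) that stayed under 1.5-fold. ORC6, the smallest subunit of the same complex as ORC1, was nearly level at 30.4 and 32.4 TPM in SORE6+ and SORE6- cells of replicate 2 and 30.7 and 33.1 TPM in those of replicate 1. CDT1, the loading partner of CDC6, was at 20.2 TPM in SORE6+ and 18.8 TPM in SORE6- cells of replicate 2 and at 21.9 TPM in SORE6+ and 13.6 TPM in SORE6- cells of replicate 1, so that 1 library, SORE6- replicate 1, stood below the other 3.

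The 6 subunits of the MCM2 to MCM7 helicase, which form a single ring, did not move by the same amount. MCM6 (ENSG00000076003.4, chr2:135839626-135876426) had 55.4 TPM in SORE6+ and 56.6 TPM in SORE6- cells of replicate 2, against 35.6 TPM in SORE6+ and 37.1 TPM in SORE6- cells of replicate 1. Replicate 2 was higher by 0.61 ± 0.05 on the log2 scale (SE, limma adjusted p = 0.036), with no overlap. MCM5 averaged 81.1 ± 0.888 TPM in replicate 2 and 59.6 ± 1.14 TPM in replicate 1 (SD, n = 2 each), a log2 difference of 0.44 ± 0.05 (SE, limma adjusted p = 0.042). MCM3 averaged 107 ± 0.225 TPM in replicate 2 and 82.3 ± 4.3 TPM in replicate 1, a log2 difference of 0.37 ± 0.05 (SE, limma adjusted p = 0.053). Those 3 subunits were higher in replicate 2 at an adjusted p under 0.1, but only MCM6 reached 1.5-fold. The other 3 did not reach that adjusted p. MCM4 and MCM2 had log2 differences of 0.18 and 0.11 (limma adjusted p = 0.14 and 0.26). MCM7 averaged 117 ± 3.14 TPM in replicate 2 and 121 ± 1.46 TPM in replicate 1, a log2 difference of -0.05 ± 0.04 (SE, limma adjusted p = 0.45).

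Of the 7 genes that act in turning the loaded helicase on, 1 passed at an adjusted p under 0.1. GINS2, a subunit of the 4-part GINS complex, had 21.4 and 20.4 TPM in the SORE6+ and SORE6- libraries of replicate 2, against 14.6 and 14.9 TPM in those of replicate 1. Its log2 difference was 0.48 ± 0.08 (SE, limma adjusted p = 0.060), short of 1.5-fold. The other 3 subunits of that complex did not follow it past the threshold. GINS1 and GINS3 had log2 differences of -0.03 and -0.02 (limma adjusted p = 0.87 and 0.86) and so were close to level. GINS4 averaged 12.6 ± 0.507 TPM in replicate 2 and 17.1 ± 2.75 TPM in replicate 1, a log2 difference of -0.40 ± 0.13 (SE, limma adjusted p = 0.15). CDC45, the helicase's other cofactor, had a log2 difference of 0.07, and MCM10, needed for origin firing, one of 0.20 (limma adjusted p = 0.61 and 0.27). CDC7, the kinase that phosphorylates the MCM ring, was at 19.6 TPM in SORE6+ and 25.5 TPM in SORE6- cells of replicate 2 and at 19.8 TPM in SORE6+ and 18.7 TPM in SORE6- cells of replicate 1, so that only the SORE6- library of replicate 2 stood apart.

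The catalytic subunits of the replicative polymerases lay on the other side of 0. POLD1, of the lagging-strand polymerase delta, had 41.6 and 37.9 TPM in the SORE6+ and SORE6- libraries of replicate 2, against 56.9 and 45.3 TPM in those of replicate 1, a log2 difference of -0.35 ± 0.07 (SE, limma adjusted p = 0.083). POLE, of the leading-strand polymerase epsilon, had 17.9 and 23.4 TPM in the SORE6+ and SORE6- libraries of replicate 2, against 25.0 and 28.3 TPM in those of replicate 1, a log2 difference of -0.36 ± 0.08 (SE, limma adjusted p = 0.092). Both fell in replicate 2 without overlap and by less than 1.5-fold, but neither stayed under an adjusted p of 0.1 with relative log expression factors (limma adjusted p = 0.14 for POLD1 and 0.15 for POLE) or upper-quartile factors (0.17 and 0.18). POLA1, of the priming polymerase alpha, averaged 9.18 ± 1.43 TPM in replicate 2 and 10.8 ± 1.68 TPM in replicate 1 (SD, n = 2 each, limma adjusted p = 0.21).

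PCNA, the sliding clamp and the most abundant of the 38, had 218 and 216 TPM in the SORE6+ and SORE6- libraries of replicate 2, against 173 and 192 TPM in those of replicate 1. It was higher in replicate 2 by 0.25 ± 0.06 on the log2 scale (SE, limma adjusted p = 0.093). None of the 5 subunits of its loader passed, with log2 differences between -0.14 (RFC1) and 0.22 (RFC4). LIG1, the ligase that seals nicks between lagging-strand fragments, averaged 22.5 ± 1.1 TPM in replicate 2 and 27.7 ± 0.769 TPM in replicate 1, and was lower in replicate 2, with a log2 difference of -0.29 ± 0.06 (SE, limma adjusted p = 0.085, but 0.16 and 0.22 under those scalings). FEN1, which trims the flaps before ligation, was level, at 69.4 ± 6.1 TPM in replicate 2 and 69.8 ± 9.42 TPM in replicate 1 (limma adjusted p = 0.97).

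The enzymes of nucleotide supply fell in replicate 2, while the uracil glycosylase placed with them rose. TYMS (ENSG00000176890.15, chr18:657604-673578), which makes thymidylate, had 105 TPM in SORE6+ and 96.6 TPM in SORE6- cells of replicate 2, against 156 TPM in SORE6+ and 155 TPM in SORE6- cells of replicate 1. The log2 difference was -0.62 ± 0.05 (SE, limma adjusted p = 0.036), without overlap. RRM2, the small subunit of ribonucleotide reductase, had 115 TPM in SORE6+ and 100.0 TPM in SORE6- cells of replicate 2, against 165 TPM in SORE6+ and 154 TPM in SORE6- cells of replicate 1. Its log2 difference of -0.57 ± 0.05 (SE, limma adjusted p = 0.037) fell just short of 1.5-fold. RRM1, the large subunit, averaged 70.3 ± 5.23 TPM in replicate 2 and 100.0 ± 5.86 TPM in replicate 1, a log2 difference of -0.50 ± 0.09 (SE, limma adjusted p = 0.064). UNG (ENSG00000076248.10, chr12:109097574-109110992), which removes uracil from DNA, had 83.9 TPM in SORE6+ and 80.4 TPM in SORE6- cells of replicate 2, against 53.7 TPM in SORE6+ and 53.9 TPM in SORE6- cells of replicate 1. Replicate 2 was higher by 0.60 ± 0.05 on the log2 scale (SE, limma adjusted p = 0.035). TYMS overlaps ENOSF1 on the opposite strand, which was at 54.5 to 64.4 TPM, and no source says that reads were counted by strand, so where they overlap their reads cannot be told apart. ENOSF1 had log2 differences of 0.21 in SORE6+ and 0.12 in SORE6- cells, opposite in sign to those of TYMS. The same limit holds for other genes here that overlap a gene on the opposite strand, among them FEN1 with TMEM258 (173 to 186 TPM), RFC4 with EIF4A2 (219 to 275 TPM) and MCM7 with AP4M1 (9.24 to 12.2 TPM). FEN1 also lies within reach of FADS2 on its own strand by the spans of the genes, and FADS2 was at 343 to 554 TPM. Of the 31-base stretches in FEN1 transcripts, 8.38% also occur in transcripts of other genes. The largest share was with FEN1P1, at 7.6% of the stretches.

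The widest shift of all 38 was that of DTL (ENSG00000143476.17, chr1:212035553-212107400), the substrate receptor of a ubiquitin ligase that destroys CDT1 on PCNA during S phase. It had 85.0 TPM in SORE6+ and 96.2 TPM in SORE6- cells of replicate 2, against 42.1 TPM in SORE6+ and 48.5 TPM in SORE6- cells of replicate 1. The lowest library of replicate 2 stood far above the highest of replicate 1, and the log2 difference was 0.99 ± 0.05 (SE, limma adjusted p = 0.026), with 1.00 in SORE6+ and 0.97 in SORE6- cells taken alone. CLSPN, the checkpoint adaptor at the fork, averaged 23.7 ± 1.22 TPM in replicate 2 and 18.3 ± 0.602 TPM in replicate 1 and was higher in replicate 2 by 0.35 ± 0.08 (log2, SE, limma adjusted p = 0.090). E2F1, the transcription factor, had a log2 difference of 0.10 ± 0.07 (SE, limma adjusted p = 0.40). Of the genes that copy chromatin, UHRF1, which reads hemimethylated DNA behind the fork, was higher in replicate 2 by 0.20 ± 0.05 on the log2 scale (SE, limma adjusted p = 0.097). The large and small histone chaperone subunits CHAF1A and CHAF1B had log2 differences of -0.08 and 0.29 (limma adjusted p = 0.48 and 0.11).

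Taken gate by gate, 31 of the 38 genes (81.6%) had the same sign of replicate 2 minus replicate 1 in SORE6+ and in SORE6- cells, against 74.6% of all genes tested. Across the 38 genes the 2 gates' differences correlated at a Pearson r of 0.88 and a Spearman rho of 0.85, against an r of 0.34 and a rho of 0.56 across all genes, where the 4 libraries enter once each and genes are not independent replicates. This was not particular to the 38. Across 35 mitotic genes r was 0.86 and rho 0.76, and all 35 (100%) had the same sign in both gates. The summed level of the 38 genes changed little, at 2073 TPM in SORE6+ and 2050 TPM in SORE6- cells of replicate 2 and 1951 TPM in SORE6+ and 1983 TPM in SORE6- cells of replicate 1. E2F words were in 15 of 16 promoters of the genes that lay wholly higher in replicate 2, in 8 of 10 of those wholly lower and in 6 of 9 of those that overlapped. In bulk RNA, a change in the share of cells in a phase and a change in RNA per cell cannot be told apart. With any 1 library left out, which needed a fit with no gate term, 0 genes of all and 0 of the 38 passed in limma (12 to 15 of the 38 at an unadjusted p under 0.05), although each of the 5 genes kept its direction. TYMS also missed the fold limit under relative log expression and upper-quartile scaling of the TPM (log2 differences of -0.52 and -0.47), and with no filter on low values none of the 5 passed (limma adjusted p = 0.17).

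**Figure D3:**
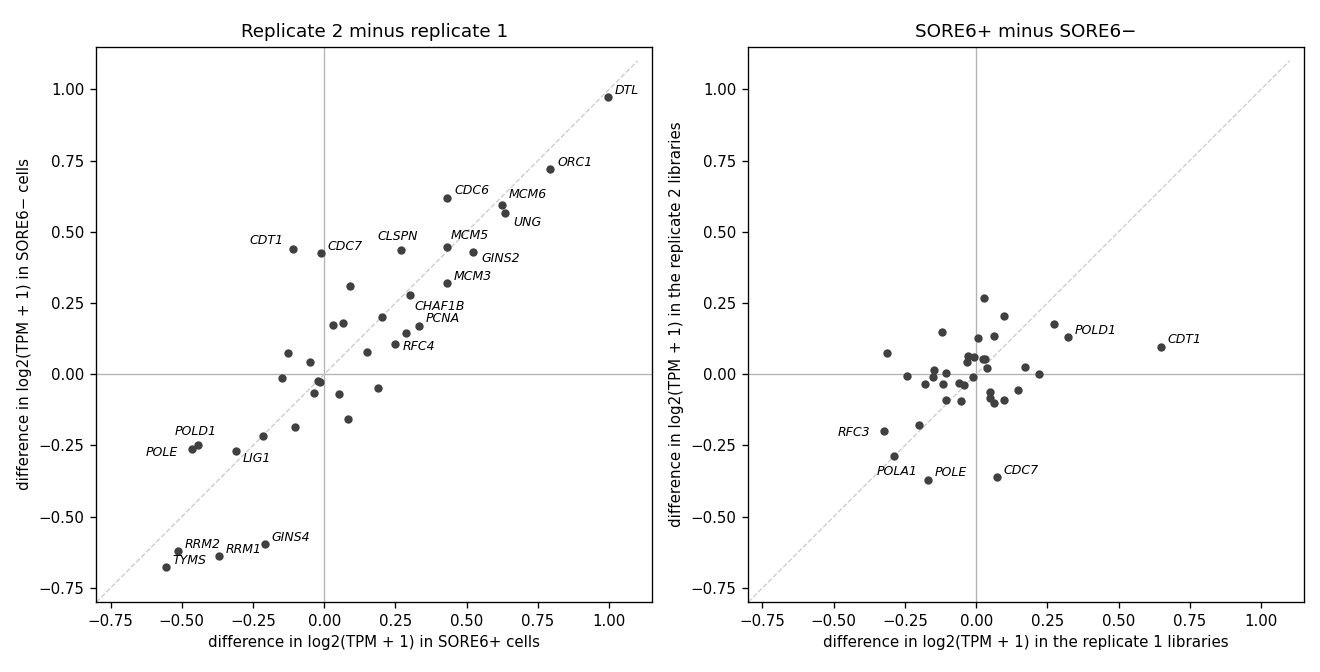
Log2 differences of the 38 genes on the log2(TPM + 1) scale, 1 point per gene with the widest named, for replicate 2 minus replicate 1 in SORE6+ (x axis) and SORE6- cells (y axis) on the left, and for SORE6+ minus SORE6- in the libraries of replicate 1 (x axis) and replicate 2 (y axis) on the right. The left points run along the diagonal from TYMS to DTL, and the right ones gather around 0.

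Between the gates, the named genes with the widest differences were CDT1, at 1.30 times its SORE6- level in SORE6+ cells, and POLA1, at 0.802 times it, and neither passed. In this fit, which has no term for the replicate number, none of the 38 reached an unadjusted p under 0.05, where 673 of all genes did (3.81%), and every adjusted p of the 38 was near 1. The log2 differences of SORE6+ minus SORE6- ran from -0.29 ± 0.17 (POLA1) to 0.37 ± 0.20 (CDT1, SE), with a median of -0.01 against -0.05 for all genes tested. Their median size, sign aside, was 0.08, against 0.22 for the same genes between replicates, and over all genes tested it was 0.14 between gates and 0.22 between replicates. The gates did not overlap for CDT1, RFC2 and FEN1, which had their 2 higher values in SORE6+ cells (10.9% of all genes), and for ORC6, POLA1, RFC3 and CDC45, which had their 2 lower values there (20.2% of all genes). Some gaps were narrow. CDC45 had 32.4 TPM in SORE6+ and 32.6 TPM in SORE6- cells of replicate 2. RFC2 had 62.5 TPM in SORE6+ and 61.3 TPM in SORE6- cells of replicate 1. For CDT1 the log2 difference of the gates was 0.65 in replicate 1 and 0.10 in replicate 2. The smallest p-values were those of RFC3 and FEN1. RFC3, a small subunit of the clamp loader, had 36.2 and 34.9 TPM in the SORE6+ libraries of replicates 2 and 1, against 41.8 and 43.9 TPM in SORE6- cells. The log2 difference was -0.26 ± 0.11 (SE, limma adjusted p = 1.00). FEN1 had 73.7 and 76.5 TPM in the SORE6+ libraries of replicates 2 and 1, against 65.1 and 63.1 TPM in SORE6- cells. The log2 difference was 0.22 ± 0.10 (SE, limma adjusted p = 1.00). CDT1 averaged 21.0 ± 1.18 TPM in SORE6+ and 16.2 ± 3.69 TPM in SORE6- cells (SD, n = 2 each), and POLA1 8.91 ± 1.05 TPM in SORE6+ and 11.1 ± 1.29 TPM in SORE6- cells. Without a replicate term, the SE of a gate difference was 0.10 to 0.49 on the log2 scale, widest for DTL, whose replicates lay far apart.

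Among other genes of the cell cycle, all 35 genes on a mitotic list were lower in replicate 2 at an adjusted p under 0.1, while further replication genes moved less. Of 50 further replication genes, 0 passed as higher and 3 as lower in replicate 2 (1.69% and 6.87% of all genes), a share close to that of all genes, and at an adjusted p under 0.1 with no fold limit 6 were higher and 13 lower, with a median log2 difference of -0.14. The 3 were TOP2A, the topoisomerase that untangles sister DNA and is also on the mitotic list, at -1.71, TK1, the salvage kinase for thymidine, at -0.85, and RNASEH2A, which removes ribonucleotides from DNA, at -0.77. Of the mitotic genes, 34 passed as lower with the fold limit and 0 as higher, with a median log2 difference of -1.25. DLGAP5, a spindle protein, had 16.7 and 19.4 TPM in the SORE6+ and SORE6- libraries of replicate 2, against 64.5 and 78.0 TPM in those of replicate 1. The ubiquitin-conjugating enzyme of mitotic exit, UBE2C, had 114 and 89.9 TPM in the SORE6+ and SORE6- libraries of replicate 2, against 292 and 232 TPM in those of replicate 1. Summed over the list, mitotic genes held 1184 TPM in SORE6+ and 1219 TPM in SORE6- cells of replicate 2, against 2792 TPM in SORE6+ and 2756 TPM in SORE6- cells of replicate 1. Of 25 tested genes on a list of G1 cyclins, their inhibitors, E2F factors and pocket proteins, 3 passed as higher, the G1/S cyclins CCNE1 (0.67) and CCNE2 (0.80) and the factor E2F2 (0.80), and 4 as lower, the kinase inhibitors CDKN1A (-0.84), CDKN1B (-0.77), CDKN2B (-0.89) and CDKN2D (-0.92), all as log2 differences. CCNE2, E2F2 and CDKN1B were named after their values had been seen. Between gates, 0 genes of these lists passed, and their medians were -0.08, -0.05 and -0.04.

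**Figure D4:**
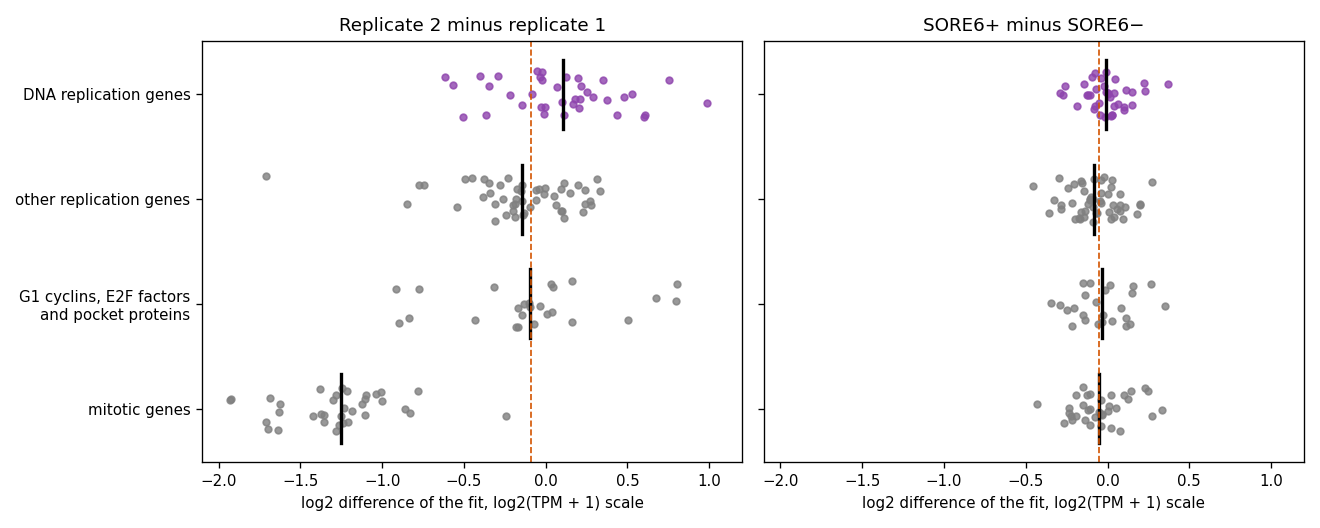
Log2 differences of single genes (points) with each list's median (black bar) and the median of all genes tested (dashed line), for replicate 2 minus replicate 1 on the left and SORE6+ minus SORE6- on the right. Between replicates the replication genes spread on both sides of 0 and the mitotic genes lie to the left around -1.25, while between gates all lists centre near 0.

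The libraries were alike in their breadth and held epithelial RNA. Between 29778 and 31501 genes had a value above 0, and transcripts of mitochondrial DNA held 19.2% and 18.5% of the TPM in the SORE6+ and SORE6- libraries of replicate 2, against 16.6% and 15.6% in those of replicate 1. How far this share bears on the replicate differences was not tested. The epithelial keratin KRT8 was at 892 to 1162 TPM, KRT18 at 777 to 1006 TPM and EPCAM at 189 to 263 TPM. VIM, the vimentin gene listed with them, had 142 and 74.0 TPM in the SORE6+ and SORE6- libraries of replicate 2. In those of replicate 1 it had 237 and 155 TPM, and its part in the results was not tested. Of 5 genes of androgen-responsive prostate epithelium, 3 were under 1 TPM in every library, and TMPRSS2 was at 20.1 to 33.5 TPM. Of the reporter's factors, SOX2 was at no more than 0.08 TPM and POU5F1, which encodes OCT4, at 2.14 to 3.09 TPM. These are RNA levels, whereas the study measured both proteins by flow cytometry and reported more of each in SORE6+ than in SORE6- PC3 cells. Of the markers of other cell types, 4 of 5 for immune cells, 3 of 6 for fibroblasts and 3 of 4 for endothelium were under 1 TPM in every library, among them PTPRC at no more than 0.75 TPM and VWF at no more than 0.26 TPM. The immune list summed to 54.1 and 49.0 TPM in the SORE6+ libraries of replicates 2 and 1, against 27.9 and 31.7 TPM in SORE6- cells, nearly all of it CD68, at 53.8 and 47.9 TPM in SORE6+ and 27.5 and 30.7 TPM in SORE6- cells. PECAM1 made up most of the endothelial list, at 12.0 to 16.9 TPM. Their part in the results was not tested. The summed fibroblast list, mostly COL1A1, was at 15.5 and 14.9 TPM in the SORE6+ and SORE6- libraries of replicate 2, against 31.7 and 41.2 TPM in those of replicate 1, and its part in the result was not tested. Sequence shared with other genes was largest for UHRF1 and RRM2, where 27.0% and 22.7% of the 31-base stretches of their transcripts also occur elsewhere, so their levels are less certain than those of DTL and MCM6, which share none. The largest partner of UHRF1 was AC112777.1 (23.1% of the stretches). That of RRM2 was AC007240.1 (19.8%), which was at only 0.551 to 2.31 TPM.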

How the data were processed

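Per the study's methods and the labels, the authors ran FastQC and MultiQC on reads from the BGISEQ-500 platform, removed adapters and low-quality bases with Trim Galore, estimated transcript abundance by salmon and brought it to genes through tximport, on GRCh38. Tool versions and the annotation release were not given in the sources used here. The deposited values are TPM as the authors computed them, each library in its own file and adding up to 1000000 TPM. The study's methods state a nominal read depth per sample, but TPM keep no read counts, so no counting error could be given. Values were transformed to log2(TPM + 1), a scale on which low genes understate their change, and limma 3.58.1 in R 4.3.3, with a variance trend, tested genes that reached 1 TPM in 2 or more libraries. One fit held the gate alone and the other the replicate number and the gate, the Benjamini-Hochberg adjustment ran over the whole table, and a gene passed below an adjusted p of 0.1 with a change of 1.5-fold or more, the study's thresholds. The design had allowed for counts, and the TPM form was used.

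Gene coordinates come from GENCODE release 29 and promoters from RefSeq. All 38 genes are named, and of the other lists those that passed, the first 4 by p, or the 3 most abundant. The members and lists were chosen with earlier results of these data known. The program was tested on simulated data with known changes, in fits that held both the gate and the replicate number. That run did not cover the reported gate fit, which has no replicate term. Python 3.11.15 with pandas 2.3.3, numpy 2.4.6 and matplotlib 3.10.9 served for tables and figures.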

Additional observations from a re-analysis of the deposited data

Results flagged for a closer look

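For 7 of the 38 genes, replicate 2 lay above replicate 1 in one gate and below it in the other. With 1 library for each gate and number, that difference between the gates was not tested. On the log2(TPM + 1) scale, the difference of replicate 2 minus replicate 1 in SORE6+ cells less that in SORE6- cells was -0.551 for CDT1 (-0.11 in SORE6+ and 0.44 in SORE6- cells), -0.435 for CDC7 (-0.01 in SORE6+ and 0.42 in SORE6- cells) and -0.201 for GINS1 (-0.13 in SORE6+ and 0.07 in SORE6- cells). It was 0.236 for CDC45 (0.19 in SORE6+ and -0.05 in SORE6- cells), 0.239 for RFC2 (0.08 in SORE6+ and -0.16 in SORE6- cells) and 0.122 for RFC3 (0.05 in SORE6+ and -0.07 in SORE6- cells). For FEN1 it was -0.095 (-0.05 in SORE6+ and 0.04 in SORE6- cells). None of the 7 passed between replicates in either form of the threshold.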

How the results depend on the processing

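The number of genes that passed between SORE6+ and SORE6- cells stayed at 0 under every alternative run but 1. The replicate block over all genes gave 0 (2982 genes at an unadjusted p under 0.05), and the replicate block over protein-coding genes alone (12826 genes) gave 164, 71 higher and 93 lower. Of the 38 genes, 6 had an unadjusted p under 0.05 with the block over all genes (smallest limma adjusted p 0.247). With the block over protein-coding genes 8 did, beside 3174 of all 12826 genes. Neither share exceeded that of all genes tested. In that last fit RFC3 and FEN1 had limma adjusted p of 0.093 and 0.096 at under 1.5-fold, where 1310 of all genes were under 0.1 with no fold limit. None of the 38 passed there with the fold limit, and the SE of the members' gate differences was 0.05 to 0.13. Same-numbered libraries of the 2 gates departed from their gate means alike (r = 0.34 across genes), but no source says that the number pairs them. The median difference of the 38 genes between gates was 0.050 with relative log expression factors, 0.035 with upper-quartile factors and -0.096 to 0.064 with each library left out.

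Between replicates, 1510 genes passed (298 higher, 1212 lower). The count was 3935 with no fold limit, 763 at an adjusted p under 0.05, 921 with no gate term, 0 with no filter on low values (6266 of 37069 genes at an unadjusted p under 0.05) and 0 with each library left out in turn (2323 to 2832 genes at an unadjusted p under 0.05, in limma fits with no gate term in which the lone library of a number is assumed to vary like the others). The split of higher and lower moved to 445 and 910 with relative log expression factors and to 562 and 850 with upper-quartile factors, which shifted the median of all genes from -0.09 to 0.00 and 0.04. The median of the 38 genes was then 0.206 and 0.25, against 0.092 to 0.115 with a library left out. Of the 38, 5 higher and 0 lower passed with relative log expression factors, 4 of them among the 5 reported, and 6 and 0 with upper-quartile factors, again with 4 shared. 8 genes with small differences changed sign under each scaling, which moves all genes by about the same amount. At an adjusted p under 0.1, POLD1, POLE and LIG1 were lost under both. The pseudocount of 0.1, protein-coding genes alone, robust limma and no gate term kept all 5. Over protein-coding genes alone, 14 of the 38 were higher and 7 lower at an adjusted p under 0.1, beside 1624 and 3869 of 12826 genes. Those gained were MCM4, RFC4 and CHAF1B as higher and GINS4 as lower (limma adjusted p = 0.062, 0.049, 0.042 and 0.038). With a pseudocount of 0.1 the member counts were 9 and 5, and with no gate term 8 and 3. As TPM keep no read counts, no count test could be run.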
